A study of Mus musculus with 12 samples.

Results

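Homeostatic and epithelial chemokines are made without infection by stromal, endothelial and epithelial cells, and set where leukocytes settle in a tissue. The 10 genes described here were Cxcl12, Cxcl13, Cxcl14, Cxcl16, Cxcl17, Ccl19, Ccl21a, Ccl28, Cx3cl1 and the lymphocyte survival cytokine Il7. They were found by gene symbol in the array annotation, which gave 20 probes of 45281 on the array, each with that gene as its single symbol. Their signal was compared between 6 arrays of submandibular gland from C57BL6J mice aged 8 weeks and 6 from mice aged 50 weeks. No treatment, transgene or allele is given for either age, the sex of the mice is not given in the sources used here, and separate animals per array are not stated, so p-values measure the spread between these arrays.

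The mouse submandibular gland is a salivary gland of acini and granular ducts, and its leukocytes lie in the stroma and around ducts. Chemokines act through receptors of the G-protein-coupled family: Cxcl12 through Cxcr4 and Ackr3, Cxcl13 through Cxcr5, Ccl19 and Ccl21a through Ccr7, Ccl28 through Ccr10 and Ccr3, Cxcl16 through Cxcr6 and Cx3cl1 through Cx3cr1. Cxcl12, Cxcl13, Ccl19 and Ccl21a are best known as products of lymphoid stroma, Cxcl14, Cxcl17 and Ccl28 as products of epithelium, and Cxcl16 and Cx3cl1 are made as membrane proteins that proteases can shed.

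Values are log2 intensities after background correction and quantile normalisation. A probe counted as detected on an array when its deposited detection p-value was under 0.05, and it was tested when detected on at least 6 of the 12 arrays. This kept 16254 probes, some of them without a gene symbol, and 9379 named genes had a kept probe. Of the 20 probes here 12 were kept, from 9 of the 10 genes. The lowest detected signal of an array averaged 5.02 on the log2 scale at 8 weeks and 4.92 at 50 weeks, and is called the floor. Levels of different probes are not compared with each other, because each probe binds its target with its own efficiency. A single array stood apart: 50 weeks array 6 correlated at a mean r of 0.936 with the others of its age, against 0.975 to 0.982 for the other 11, and results that turn on it are given without it as well. In these whole-gland samples, fewer cells of a type and less RNA per cell cannot be told apart.

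Upstream sequence is shown for 3 of the genes. Cxcl12 passed the test between the ages, and Cxcl13 and Ccl21a had their highest value of each age on the same array. Each run is the 250 bases before the gene start in RefSeq, build GRCm38.p6, written 5′ to 3′ on the strand of the gene, and 7 of the 10 genes had an entry. Capitals mark matches, on either strand, to a TATA box (TATAAA), a GC box (GGGCGG), a kappaB site (GGGA, any 4 bases, CC), an interferon-stimulated response element (GAAA, any 2 bases, GAAA), a gamma-activated site (TTCNNNGAA) or an E box (CACGTG).
Cxcl12, chr6:117168285-117168534, plus strand: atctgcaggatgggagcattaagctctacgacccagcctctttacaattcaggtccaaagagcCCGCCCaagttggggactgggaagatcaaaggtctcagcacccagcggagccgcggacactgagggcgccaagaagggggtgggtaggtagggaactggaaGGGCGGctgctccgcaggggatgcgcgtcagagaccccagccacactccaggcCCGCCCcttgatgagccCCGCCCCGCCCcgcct
Cxcl13, chr5:95956689-95956938, plus strand: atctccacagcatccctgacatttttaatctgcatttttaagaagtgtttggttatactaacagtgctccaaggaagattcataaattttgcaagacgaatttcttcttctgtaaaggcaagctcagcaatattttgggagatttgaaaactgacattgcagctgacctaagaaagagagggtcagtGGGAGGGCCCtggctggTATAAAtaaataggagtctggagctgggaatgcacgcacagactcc
Ccl21a, chr4:42773992-42774241, minus strand: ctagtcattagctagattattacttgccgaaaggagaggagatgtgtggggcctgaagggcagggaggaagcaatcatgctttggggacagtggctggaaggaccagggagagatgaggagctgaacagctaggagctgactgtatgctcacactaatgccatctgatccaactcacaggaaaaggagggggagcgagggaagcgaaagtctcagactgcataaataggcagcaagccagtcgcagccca
The Cxcl12 stretch held 5 GC box matches, 2 of them overlapping, and GC boxes were found in 32.7% of 32841 such stretches over all genes. The Cxcl13 stretch held a TATA box match starting 46 bases before the gene start, a motif present in 12.4% of all stretches. It also held a kappaB match 63 bases before the start, found in 17.6% of all. The Ccl21a stretch held none of the 6 motifs. Of the other 4 genes, Ccl19 had a kappaB match and Cxcl14 a gamma-activated site, at 7.02% of all stretches. Both also had an interferon-stimulated response element match, at 2.98%. The Cxcl14 stretch lay inside the annotated span of its gene, so its matches were not upstream of that span. Ccl28 and Cx3cl1 had a GC box match, Cx3cl1 also had a TATA box match, and no member had an E box. These are matches of letters and say nothing about binding in this tissue.

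Between the ages, Cxcl12 and Cxcl16 rose, and none of the other members passed the test in either direction. Cxcl12 was 1.52-fold higher at 50 weeks, with no overlap between the ages. Cxcl16 was 1.27-fold higher on its brighter probe, with a call close to the threshold. Cxcl13 was above background on 2 young arrays and all 6 old ones and did not pass. The epithelial genes Cxcl14 and Cxcl17, with 2 probes each, and Cx3cl1 differed by 0.15 or less on the log2 scale.

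In counts, 2 of the 12 tested probes passed in either direction, where 9.64% of all kept probes did. Both were higher at 50 weeks by limma's moderated test with Benjamini-Hochberg adjustment over all 16254 kept probes, where 4.95% were higher. None (0 of 12) was lower, where 4.69% were, and at an unadjusted p under 0.05 there were 3 higher and 1 lower. Groups did not overlap for 1 of the 12, against 5.64% of all kept probes. The median difference over the 12 probes was 0.0068 on the log2 scale, and -0.019 over all kept probes. Of the 12 differences, 6 were above 0 and 6 below.

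**Figure D1:**
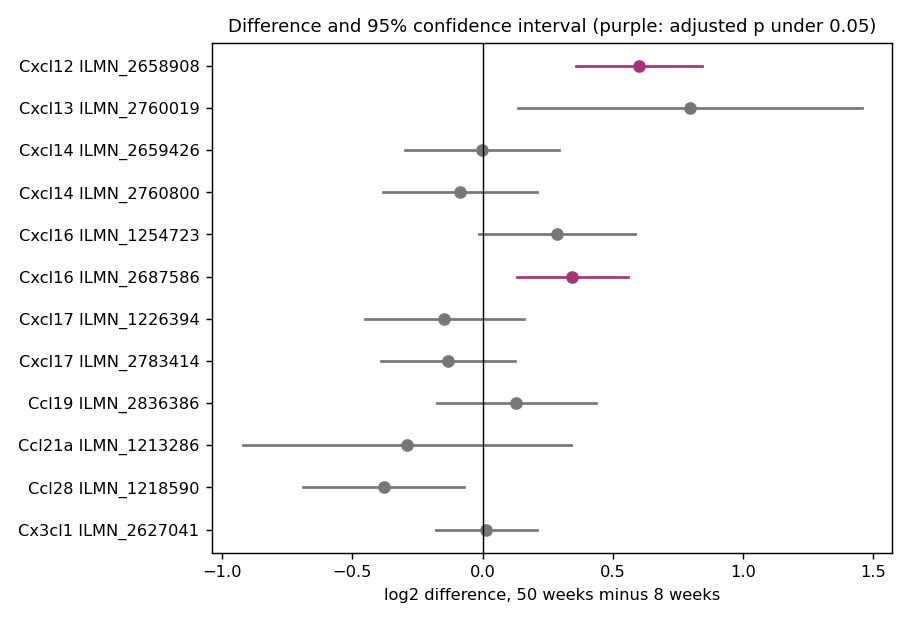
The horizontal axis is the log2 difference, 50 weeks minus 8 weeks, and each line is the 95% confidence interval of 1 of the 12 tested probes, before adjustment for multiple tests. Only Cxcl12 at 0.60 and the brighter Cxcl16 probe at 0.34, in purple, had an adjusted p under 0.05.

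Cxcl12 holds CXCR4-bearing leukocytes and progenitors near the stroma that makes it. On probe ILMN_2658908 it ran from 6.01 to 6.66 over the 8-week arrays, with a median of 6.21, and from 6.71 to 7.03 over the 50-week arrays, with a median of 6.87. All 6 old arrays lay above all 6 young ones, and the gap between the ages was small against the range within them, with 6.66 on 8 weeks array 1 next to 6.71. The means were 6.28 ± 0.24 and 6.88 ± 0.13 (SD, n = 6). The difference was 0.60 ± 0.11 on the log2 scale (SE; 95% confidence interval 0.36 to 0.84; limma adjusted p = 0.00486). Without background correction it was 0.29, and on the authors' scaled values 0.28, both past the threshold.

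The other 4 Cxcl12 probes were near or below the floor. ILMN_2746295 and ILMN_3078973 were detected on no array. ILMN_2737302 was detected on 2 old arrays and ILMN_3158250 on 1 old array, with 0 young arrays each, and their means were 4.76 and 4.65 at 8 weeks and 4.91 and 4.79 at 50 weeks. The 5 probes were designed on 3 RefSeq transcripts, and the probe that rose is the 1 designed on NM_013655. The statement on Cxcl12 therefore rests on that single probe, and nothing can be said of the transcripts that the dim probes target.

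Cxcl13, which draws B cells into follicles, split the young arrays. Probe ILMN_2760019 stood at 6.10 and 5.66 on 8 weeks arrays 1 and 2, and between 4.52 and 4.82, undetected, on the other 4. At 50 weeks it ran from 5.15 on array 4 to 6.60 on array 2, with a median of 5.89, and was detected on every array. The ages overlapped, since 2 of 6 old arrays lay above all young ones. The means were 5.08 ± 0.64 and 5.88 ± 0.58 (SD, n = 6). With undetected values raised to the floor of their array, Cxcl13 was at least 1.47-fold higher on these old arrays, as a description without a call. The fitted difference was 0.80 ± 0.31 on the log2 scale (SE; limma adjusted p = 0.122). Without 8 weeks array 1 the difference was 1.00 (adjusted p = 0.0474), and without 50 weeks array 6 it was 0.91 (adjusted p = 0.0498).

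Transcripts of B and plasma cells stood high on the same young arrays. The summed normalised intensity of the 4 measured markers (Cd79b, Mzb1, Pou2af1 and Fcrla, of 10 on the array) was 217 and 168 on 8 weeks arrays 1 and 2, and from 87.8 to 104 on the other 4. At 50 weeks it ran from 180 on array 4 to 730.01 on array 1. Of the 4 markers 3 rose with age, but all 4 passed the detection filter mainly through the old arrays, so this count is a description and is not set against the share over all genes. Cxcl13 passed the filter in the same way. The defining B-cell markers Cr2 and Pax5 and the plasma cell receptor Tnfrsf17 were detected on no array. T and NK cell markers, 5 measured of 9 on the array, summed to 317 and 322 on 8 weeks arrays 1 and 2, against 130 to 145 on the other young arrays and 288 to 524 at 50 weeks, and Cd247, Cd8a and Gzmb were detected on no array. The part of these cells in the Cxcl13 difference was not tested.

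Ccl19 and Ccl21a bring T cells and dendritic cells together through Ccr7. Ccl19 (ILMN_2836386) was near the floor, above it on 3 young and 5 old arrays. It ran from 4.68 to 5.30 with a median of 4.97 at 8 weeks, and from 4.76 to 5.58 with a median of 5.06 at 50 weeks, so the ages overlapped almost fully. The fitted difference was 0.13 ± 0.14 (SE) on the log2 scale, with a limma adjusted p of 0.634. With undetected values of both ages raised to the floor, the fold of 50 weeks over 8 weeks was 1.02, which is not a lower limit.

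Ccl21a (ILMN_1213286), detected on all arrays, had the widest spread of the 12 probes within each age except that of Cxcl13 at 50 weeks. It ran from 7.26 to 8.94 with a median of 7.57 at 8 weeks, and from 7.03 to 8.50 with a median of 7.42 at 50 weeks. The high arrays were 8 weeks arrays 1 and 2, at 8.94 and 8.28, and 50 weeks array 2, at 8.50, while the other 9 lay between 7.03 and 7.66. These 3 arrays were also among the 6 highest for Cxcl13. The difference was -0.29 ± 0.29 (SE, log2; 95% confidence interval -0.92 to 0.34; limma adjusted p = 0.6), and it was -0.066 without 8 weeks array 1 and -0.48 without 50 weeks array 2. Mouse Ccl21a has near-identical copies, and probes annotated to Ccl21c followed it closely, so the signal cannot be assigned to a single copy. The 2 Ccl21c probes that followed it most closely differed by -0.21 ± 0.23 and -0.20 ± 0.25 (SE, log2) and did not pass.

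Markers of lymph node stroma and high endothelial venules were looked at because a node lies next to the gland. None of the 6 on the array passed the detection filter, and Madcam1, Chst4 and Bst1 were detected on no array. Glycam1, a mucin-like ligand made by high endothelial venules, was 8.15 on 8 weeks array 1 and 6.15 on 8 weeks array 2, both detected, and between 4.36 and 4.58, undetected, on the other young arrays. At 50 weeks it was detected at 5.18 on array 2 and 4.89 on array 1, and undetected at 4.60 or less on the other 4. The 3 arrays high in Ccl21a were therefore the 3 highest in Glycam1. The other detected markers did not follow this order. Clec4g (ILMN_1234310) was detected at 5.15 on 8 weeks array 4 and at 5.04 and 5.42 on 50 weeks arrays 2 and 6. It was undetected on 8 weeks arrays 1 and 2. Fut7 was detected only on 50 weeks array 1, at 4.97. The 4 arrays with Glycam1 were also the highest of their age for Cxcl13, and the young pair was the highest of its age for Cxcl12. The lymphatic endothelium markers Lyve1, Pdpn and Reln summed to 242 to 357 at 8 weeks and 260.2 to 349 at 50 weeks. Pdpn was the brightest of the 3 and weighs most in this sum. The highest young sum was on array 1 and the highest old sum on array 6. Old array 2, which was high in Ccl21a, stood at 296. Prox1 was detected on no array. The part of node tissue or lymphatic vessels in the Ccl21a, Cxcl13 and Cxcl12 values was not tested.

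**Figure D2:**
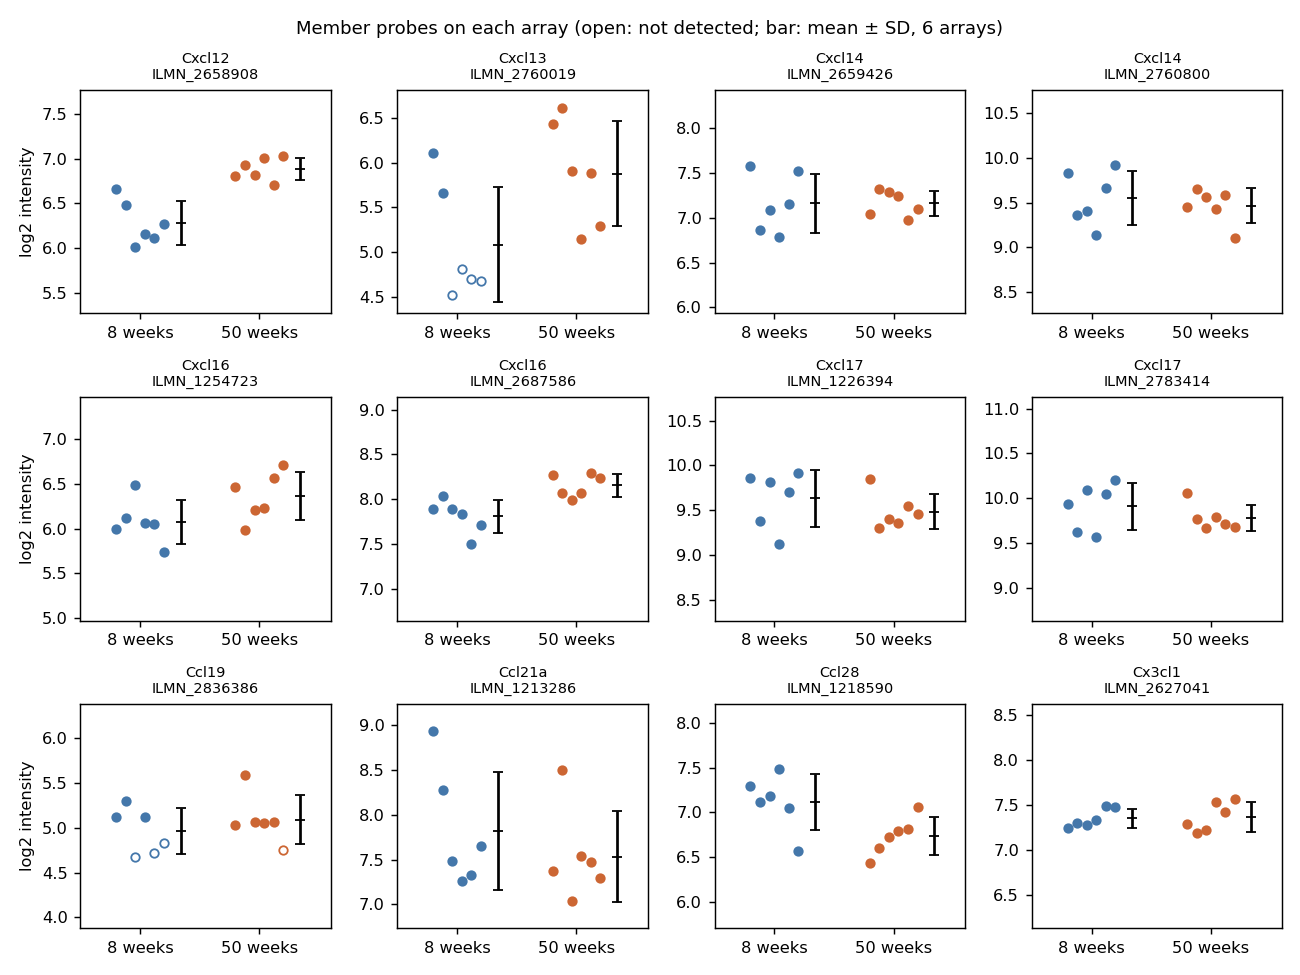
Each panel shows the log2 intensity of 1 tested probe on the 6 arrays of 8 weeks (blue) and the 6 of 50 weeks (orange), with open points for undetected values and bars for the mean ± SD, and all panels span the same log2 range. Cxcl12 is the panel whose ages do not overlap, and Cxcl13 shows 4 undetected young arrays between 4.52 and 4.82 below 2 detected ones.

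Among the membrane-bound chemokines, Cxcl16, which attracts Cxcr6-bearing T and NK cells and also acts as a scavenger receptor, had 2 tested probes, both designed on the same transcript. The brighter, ILMN_2687586, ran from 7.49 to 8.03 with a median of 7.86 at 8 weeks, and from 7.99 to 8.29 with a median of 8.15 at 50 weeks. Of 6 old arrays 5 lay above every young one, and 50 weeks array 3 fell just under 8 weeks array 2. The difference was 0.34 ± 0.10 (SE, log2; 95% confidence interval 0.13 to 0.56; limma adjusted p = 0.042). The dimmer probe, ILMN_1254723, differed by 0.29 ± 0.14, from 6.07 ± 0.24 to 6.36 ± 0.27 (SD, n = 6), and did not pass (limma adjusted p = 0.222). The call of the brighter probe ended when any 1 of 9 arrays was left out, with adjusted p up to 0.0942, with no detection filter (0.0565), and when each array was scaled to the same median (0.176).

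Cx3cl1, which tethers monocytes and macrophages that carry Cx3cr1, had the smallest standard error of the 12 probes. Probe ILMN_2627041 ran from 7.24 to 7.49 with a median of 7.32 at 8 weeks, and from 7.18 to 7.57 with a median of 7.35 at 50 weeks. The ages overlapped, with 2 old arrays above and 2 below all young ones. The difference was 0.015 ± 0.091 (SE, log2; 95% confidence interval -0.18 to 0.21; limma adjusted p = 0.942).

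Ccl28, made by mucosal and glandular epithelium, draws IgA plasma cells through Ccr10. Probe ILMN_1218590 ran from 6.57 to 7.49 with a median of 7.15 at 8 weeks, and from 6.43 to 7.06 with a median of 6.76 at 50 weeks. The ages overlapped: 8 weeks array 6, at 6.57, lay below 5 of the 6 old arrays, and 50 weeks array 6 was the highest old one. The means were 7.12 ± 0.31 and 6.74 ± 0.21 (SD, n = 6). The difference was -0.38 ± 0.14 (SE, log2; 95% confidence interval -0.69 to -0.072) and did not pass (limma adjusted p = 0.113). It passed without 8 weeks array 6 (-0.49, adjusted p = 0.0278) and without 50 weeks array 6 (-0.44, adjusted p = 0.0344). A second Ccl28 probe, ILMN_2545248, was detected on no array, and so was the probe of its receptor Ccr10.

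Cxcl14, a chemokine of epithelium and fibroblasts, was measured well by both of its probes. ILMN_2760800 ran from 9.14 to 9.92 with a median of 9.53 at 8 weeks and from 9.11 to 9.65 with a median of 9.51 at 50 weeks. Its difference was -0.087 ± 0.14 (SE, log2; 95% confidence interval -0.38 to 0.21; limma adjusted p = 0.757). ILMN_2659426 differed by -0.0015 ± 0.14, with an interval of -0.30 to 0.30 (limma adjusted p = 0.996). On both probes 8 weeks arrays 1 and 6 were the highest young arrays and 8 weeks array 4 the lowest.

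Cxcl17, a chemokine of mucosal epithelium, was also measured by 2 probes. ILMN_2783414 ran from 9.56 to 10.20 with a median of 9.99 at 8 weeks, and from 9.66 to 10.05 with a median of 9.74 at 50 weeks. The difference was -0.13 ± 0.12 (SE, log2; 95% confidence interval -0.39 to 0.12; limma adjusted p = 0.55), and -0.15 ± 0.14 on ILMN_1226394, with an interval of -0.45 to 0.16 (limma adjusted p = 0.583). On both probes 50 weeks array 1 stood above the other old arrays, at 10.05 and 9.85, and 8 weeks arrays 2 and 4 were the lowest young ones.

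Il7, a stromal cytokine that keeps naive lymphocytes alive, was not measurable here. Of its 3 probes, ILMN_1213727 and ILMN_1248546 were detected on no array. ILMN_2630852 was detected on 2 young and 1 old arrays, with means of 4.85 ± 0.23 and 4.76 ± 0.17 (SD, n = 6), both below the floor, so no fold is given and a difference was not detectable. In all, 8 of the 20 probes fell below the filter, 5 of them detected on no array, and 10 of the 12 tested probes were detected on all 12 arrays.

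**Figure D3:**
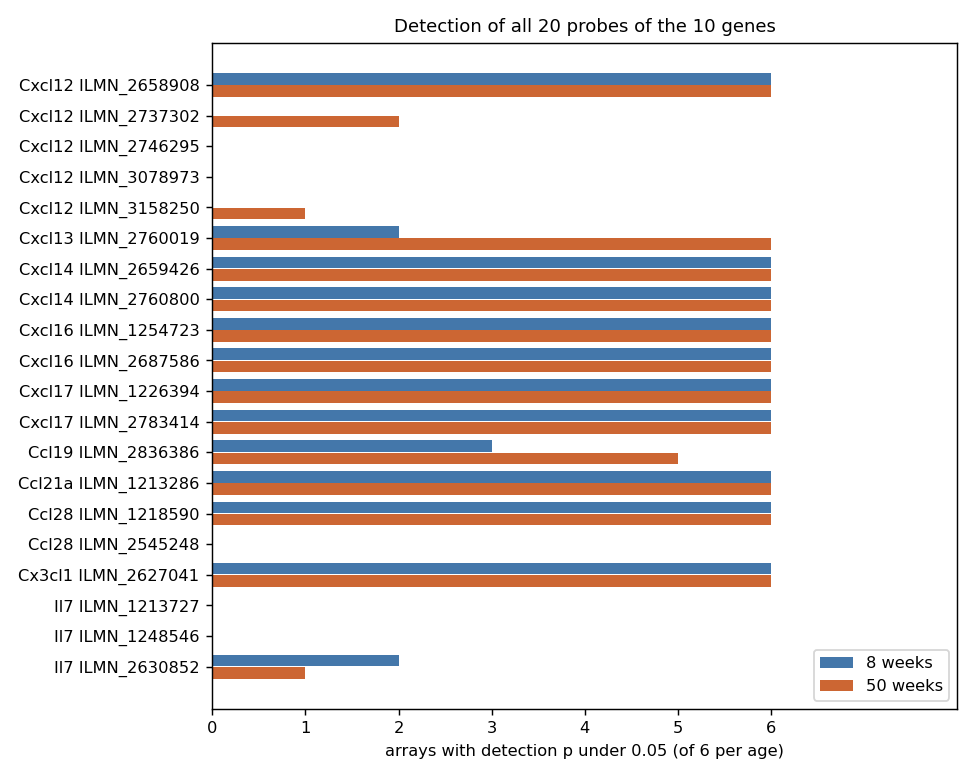
Bars give, for each of the 20 probes, the number of arrays of each age with a detection p under 0.05, out of 6. Cxcl13 moved from 2 to 6 arrays and Ccl19 from 3 to 5, while all 3 Il7 probes and 4 of 5 Cxcl12 probes stayed at 2 or fewer.

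Arrays differed in which members they raised. On 8 weeks array 1, Ccl21a was 1.12 and Cxcl13 1.02 above the mean of their age on the log2 scale, and Cxcl12 was 0.37 above it. Cxcl14 was 0.41 above it on ILMN_2659426 and 0.28 on ILMN_2760800. Only Cx3cl1 and the dimmer Cxcl16 probe were below the mean of their age on that array. On 50 weeks array 2, Ccl21a was 0.96, Cxcl13 0.73 and Ccl19 0.49 above the mean of their age, while both Cxcl16 probes were below it. Cxcl17 and Ccl28 were not raised on that array. The array that stood apart, 50 weeks array 6, was the lowest old array for Ccl19 and one Cxcl14 probe and the highest for Cxcl12, Ccl28, Cx3cl1 and one Cxcl16 probe. Without it Cxcl12 differed by 0.57 and Cxcl16 by 0.33, both past the threshold.

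**Figure D4:**
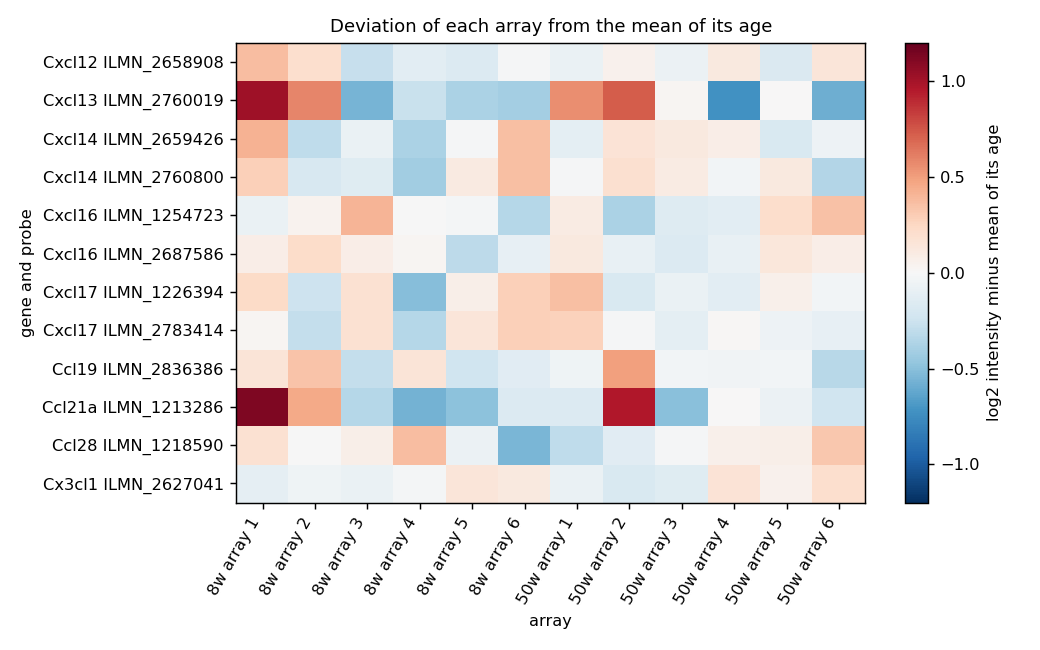
Colours give the log2 intensity of each tested probe on each array minus the mean of that probe over the 6 arrays of the same age, with red above and blue below. The deepest red cells are Ccl21a and Cxcl13 on 8 weeks array 1, at 1.12 and 1.02, and Ccl21a on 50 weeks array 2, at 0.96.

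Genes whose values followed a member most closely were taken from 13841 kept probes of other named genes (13840 for members with 2 tested probes), by Pearson's r over the 12 arrays after removing the mean of each age. Among that many probes a high r is found for any gene, so these are descriptions. For Cxcl13 they were Il4i1 (r = 0.98), Gpr18 (r = 0.98) and Fcrla (r = 0.96), and like Cxcl13 all 3 were detected on 2 of 6 young arrays. For Ccl21a they were both Ccl21c probes (r = 0.95 and 0.94) and LOC100041504 (r = 0.94). For Cxcl12 they were Celf2, Samd9l and Stc1 (r = 0.90, 0.89 and 0.88). Samd9l rose by 0.95 ± 0.15 with age and Stc1 changed by -0.79 ± 0.12 (SE, log2; limma adjusted p = 0.0015 and 0.00128), so likeness within an age did not go with the same difference between ages. For Cxcl16 the closest was Dhx58, a regulator of RNA sensing induced by interferon (r = 0.91), which rose by 0.59 ± 0.11 (SE, log2; limma adjusted p = 0.00483). For Cxcl14 they included Dcn, the matrix proteoglycan decorin (r = 0.89), and Fbln2, the matrix protein fibulin 2 (r = 0.89). For Ccl28 the closest was Mdfic (r = 0.95), for Cxcl17 Lamp1, a lysosomal membrane protein (r = 0.87), for Ccl19 Gimap1, a lymphocyte GTPase (r = 0.87), and for Cx3cl1 Olfr503 (r = 0.91).

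The receptors of these ligands were mostly dim. Of 13 receptor genes on the array 5 were measured, and none (0 of 5) passed limma's test, with 0 at an unadjusted p under 0.05, where 5.52% of genes were higher and 5.1% lower. Their median difference was 0.13 on the log2 scale, or 0.11 with Il7r at its bound. Cx3cr1 differed by 0.21 ± 0.14, Cxcr4 by 0.22 ± 0.22 and the Ccl19 and Ccl21 scavenger Ackr4 by 0.11 ± 0.18 (SE, log2; limma adjusted p = 0.388, 0.599 and 0.756). Il7r, the Il7 receptor chain, was detected on 2 young and 4 old arrays. Ackr3, Ccr10, Ccr3 and Ackr1 were detected on no array, Cxcr5 on 0 young and 2 old arrays, Cxcr6 on 0 young and 3 old, and Ccr7 on 2 of each age.

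Proteases that shed or trim these ligands were measured for 7 of 9 genes. Of these 0 rose and 1 fell, where 5.52% of all genes were higher and 5.1% lower, and their median difference was -0.25. The 1 that fell was Mmp2, a gelatinase that also cuts the start of Cxcl12, at -0.51 ± 0.13 (SE, log2; limma adjusted p = 0.0258), a call that ended without 8 weeks array 1 (0.0583), 8 weeks array 6 (0.0519) or 50 weeks array 2 (0.0562). Dpp4, the peptidase that inactivates Cxcl12, differed by -0.27 ± 0.08 and missed the threshold (limma adjusted p = 0.0521), and Cpm, a carboxypeptidase, by -0.29 ± 0.14 (limma adjusted p = 0.229). Adam10 and Adam17, which shed Cxcl16 and Cx3cl1, differed by -0.017 ± 0.11 and -0.10 ± 0.11 (SE, log2) and did not pass.

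Lymphotoxin and the alternative NF-kB pathway drive homeostatic chemokines in lymphoid stroma. Of 9 genes measured, of 16 on the array, 2 rose and 0 fell, where 5.52% of all genes were higher and 5.1% lower. The median difference was 0.26, or 0.19 with genes near the floor at their bound. Tnfsf13b, the B-cell survival factor BAFF, rose by 0.85 ± 0.16 (SE, log2; limma adjusted p = 0.00535) and by 0.83 on its second probe. Birc2, which restrains this pathway, rose by 0.26 ± 0.07 on its brightest probe (limma adjusted p = 0.0348), while its other 3 tested probes differed by 0.013, 0.21 and -0.17 and did not pass; this call ended without any 1 of 8 arrays, with adjusted p up to 0.0785. Relb, a transcription factor at the end of the pathway, differed by 0.41 ± 0.13 (SE) on the log2 scale, with a limma adjusted p of 0.0632. Ltb, a lymphotoxin chain, was detected on 3 young and 5 old arrays. With undetected values of both ages raised to the floor it was 1.14-fold higher, without passing (limma adjusted p = 0.318). Lta was detected on 1 array of each age, and Tnf and Tnfsf14 on no array.

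Among genes of Il7 receptor signalling and related cytokines, 7 of 12 on the array were measured. None (0 of 7) passed limma's test, where 5.52% of all genes were higher and 5.1% lower. At an unadjusted p under 0.05 there were 1 higher and 1 lower. Il15, a cytokine related to Il7, differed by -0.35 ± 0.11, Bcl2, a survival gene, by 0.47 ± 0.17 and Jak1, a receptor kinase, by -0.17 ± 0.13 (SE, log2; limma adjusted p = 0.0624, 0.0933 and 0.447). Inflammatory chemokines were listed for contrast, in a list that also held Ccl25 and the skin epithelial chemokine Ccl27a. That list had 7 of 12 measured genes higher and 0 lower, with a median difference of 0.99, or 0.62 with genes near the floor at their bound. Of those 7, 5 passed the detection filter mainly through the old arrays (detected on 0 to 2 young arrays), which favoured a rise, and the count was 1 with the strict filter. The 9 measured members here had 2 higher, 0 lower and a median of 0.015 either way, and the lists are not compared by these counts. Ccl12, a monocyte chemokine, rose by 1.42 ± 0.21 (SE, log2; limma adjusted p = 0.001), Cxcl9 was at least 3.96-fold and Cxcl10 at least 1.12-fold higher, and Ccl27a, a chemokine of skin epithelium, differed by 0.0060 ± 0.14 (limma adjusted p = 0.987).

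**Figure D5:**
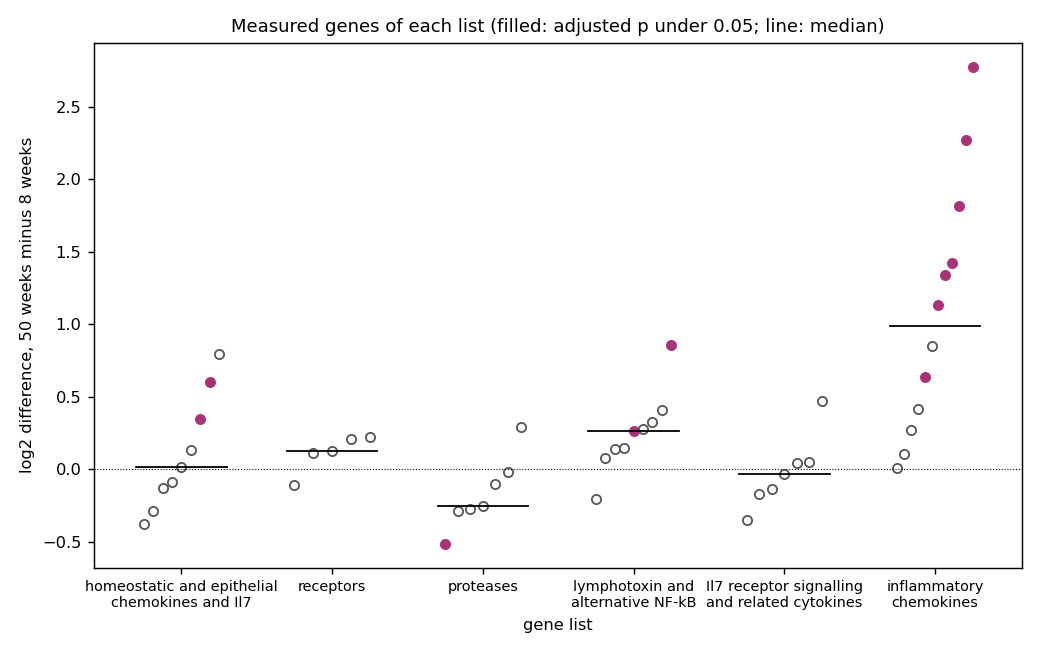
Each point is the log2 difference, 50 weeks minus 8 weeks, of the brightest tested probe of a gene, filled where the adjusted p was under 0.05, with a line at the median of each list. Filled points number 2 of 9 for the homeostatic and epithelial chemokines, where 5.52% of all genes were higher and 5.1% lower. They number 7 of 12 for the inflammatory chemokines, of which 5 passed the detection filter mainly through the old arrays. The lists are therefore not compared by these counts.

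Across the whole series, mean probe intensity per array ran from 207 to 324 and detected probes from 15318 to 18110. All 9 submandibular markers with a probe, among them Klk1, Egf and Aqp5, were detected on every array. Of these 1 was higher and 2 lower. Bhlha15 rose by 0.41, and Klk1 and Ascl3 changed by -0.73 and -0.85 (log2, limma adjusted p = 0.039, 0.00023 and 0.00255). Genes listed as products of the neighbouring parotid or sublingual glands summed to 39210 to 79133 at 8 weeks and 36691 to 71523 at 50 weeks. The level of that sum does not measure those glands, because bright Prol1 holds much of it, at 14.78 ± 0.11 and 14.87 ± 0.15 (SD, log2). Prol1 was steady, while Bpifa2 varied between arrays, from 12.52 to 15.23 at 8 weeks and from 13.11 to 14.92 at 50 weeks. Amy1 also varied, from 8.14 to 14.10 at 8 weeks and from 7.73 to 13.80 at 50 weeks. Of the 5 measured genes, 0 were higher and 1, Car6, was lower (-0.48, limma adjusted p = 0.0495). The part of neighbouring glands in the member values was not tested. Macrophage and dendritic cell markers, 9 measured of 11, summed to between 2038 and 5508 at 8 weeks, highest on array 2, and between 4399 and 7146 at 50 weeks; 7 of the 9 rose, Flt3 was detected on 1 old array, and their part in the Cxcl16 and Cxcl12 differences was not tested. Fibroblast markers, 10 of 10 measured, summed to 6106 to 8572 at 8 weeks and 5106 to 7023 at 50 weeks, with 1 higher and 4 lower, and their part in the Cxcl12 difference was not tested either. The 3 measured adipocyte markers summed to 582 to 5566 at 8 weeks and 537 to 857 at 50 weeks. The highest young sum was on array 2, and young arrays 1 and 4 stood at 1683 and 1314. The part of adipocytes in the Cxcl12 and Cxcl16 differences was not tested. Myoepithelial markers, 6 measured of 8, had 5 higher and 0 lower. They summed to 9738 to 12246 at 8 weeks and 13700 to 15660 at 50 weeks, with no overlap, while Cnn1 and Oxtr were detected on no array. The part of myoepithelium in the Cxcl12 and Cxcl16 differences was not tested. Beside these marker counts, 5.52% of all genes were higher and 5.1% lower. Each sum adds linear intensities, so its brightest gene weighs most. For macrophages and dendritic cells that gene was Cd74, for fibroblasts Dcn and for myoepithelium Acta2. The sums are therefore not levels of the whole marker set.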

How the data were processed

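Per the labels' protocols, RNA from submandibular gland was hybridised as biotinylated cRNA to 12 Illumina bead arrays, 6 per age. The deposited table holds a linear intensity for 45281 probes per array, not scaled between arrays, and, per the file headers, a detection p-value for each. A second deposited table holds the same intensities times 1 factor per array (0.803 to 1.26), so that each array has a mean of 260.6. Scanner and summary software are not stated in the labels or file headers. The number of arrays limits the precision.

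Background correction and quantile normalisation used the neqc function (offset 16; limma 3.58.1, R 4.3.3), which gives log2 values. Probes with a detection p under 0.05 on at least 6 arrays entered the fit (lmFit and eBayes, 2-sided, Benjamini-Hochberg over all kept probes, threshold 0.05). Array weights used statmod 1.5.0. Of the probes, 34885 had 1 symbol, 18 several and 10378 none; 34807 matched the gene table of GRCm38.p6 by gene number, and 0 symbols changed. A gene in a list was counted by its brightest kept probe. Where a group mean was under the floor, or a group had 3 or fewer detected arrays, the fold was computed with values under the floor of their array raised to it. This value is called the bound. It is a lower limit only where every array of the higher age was detected, which was not so for Ccl19, Ltb and Il7r, among others. Named genes are all members, up to 3 genes per list with the smallest adjusted p, and the 3 probes closest to each member; other genes were named after their values were seen, and detection counts are given for any list gene. The members and lists were chosen with earlier results of these data known. Titles number arrays 1 to 6 in each age; deviations of same-numbered arrays correlated at 0.02 to 0.29, and not all pairs exceeded 0.1, so the numbers were not taken as pairs. The fit was tested on simulated data. Alternatives were the background step, the scaling, the deposited scaled values with a pseudocount of 16, the filter, the choice of probe, array weights, the replicate number as a block and leaving out arrays. Upstream sequences came from RefSeq.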

Additional observations from a re-analysis of the deposited data

Results flagged for a closer look

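In 3 of the 24 sets of 6 arrays (12 tested probes at 2 ages), 1 array stood apart from the nearest other by more than Dixon's 95% critical value allows, where chance gives about 1 in 20. Ccl21a on 50 weeks array 2 was 8.50, against at most 7.54 on the other old arrays. Ccl19 on the same array was 5.58, against at most 5.06. Cxcl17 (ILMN_2783414) on 50 weeks array 1 was 10.05, against at most 9.79. Without those arrays the differences were -0.48 for Ccl21a, 0.031 for Ccl19 and -0.19 for Cxcl17, and none of the 3 passed the threshold with or without them (limma adjusted p between 0.315 and 0.916).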

How the results depend on the processing

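The Cxcl12 difference kept its direction and its call in all 21 alternatives, between 0.28 and 0.73, with limma adjusted p up to 0.0484. Of 247 recomputed differences of the 12 probes, 213 kept direction and side of the threshold, 12 lost the call, all of the brighter Cxcl16 probe, 8 gained it (4 for Cxcl13, 4 for Ccl28) and 14 changed sign, none of them called. The number of members higher, 2, was 1 with median scaling, 1 with no filter and 3 without 8 weeks array 2 and 50 weeks array 6 together, and ran from 1 to 3 without single arrays. The number lower, 0, was 1 with array weights and 1 without that pair of arrays, and 0 to 1 without single arrays. Over all kept probes, 804 higher and 763 lower became 424 and 84 with median scaling, which raised the median of all differences by 0.12, to 0.10, and the share of higher calls from 51.3% to 83.5%. They became 2045 and 2181 with array weights, and 2042 and 2118 without that pair of arrays. On the authors' scaled values 486 were lower. Without single arrays the counts ran from 541 to 1869 higher and from 493 to 1886 lower, the highest of both without 50 weeks array 6. Relative to the median under median scaling, Cxcl12 differed by 0.63 and Cxcl16 by 0.37.

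Sign changes were confined to Cxcl14 and Cx3cl1. Cxcl14 was 0.13 (ILMN_2659426) and 0.021 (ILMN_2760800) with median scaling, and 0.0057 (ILMN_2659426) on the authors' scaled values. Without single arrays ILMN_2659426 ran from -0.077 to 0.081 and Cx3cl1 from -0.026 to 0.052. Cx3cl1 was -0.021 with array weights and -0.036 without 8 weeks array 2 and 50 weeks array 6. With the replicate number as a block, Cxcl13 passed (0.80, adjusted p = 0.0179) and Cxcl16 did not (0.34, adjusted p = 0.111), members higher stayed 2, all kept probes were 656 higher and 519 lower, and 1 of 6 young arrays correlated best with its own number.

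Called receptors, 0, became 2 without 8 weeks array 2 and 50 weeks array 6, and stayed 0 without single arrays. Called proteases, 1, were 2 without background correction, with no filter, the strict filter or the brightest probe of each gene, 3 with array weights and 0 with median scaling or the authors' scaled values, and 0 to 3 without single arrays. Called lymphotoxin pathway genes, 2, were 1 with median scaling, the authors' values, the strict filter or the replicate block, 4 with array weights or without that pair of arrays, and 1 to 3 without single arrays. Called genes of the Il7 receptor list, 0, were 1 without background correction, with the strict filter, the brightest probe or array weights, 2 without that pair, and 0 to 2 without single arrays. Called inflammatory chemokines, 7, were 1 with the strict filter, which removed most of them, and 7 to 8 without single arrays. The cause of these changes was not tested. Signal near the floor limits Ccl19, Cxcl13, Il7 and most receptors.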
